A study of Homo sapiens with 6 samples.

Results

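The circadian clock genes CLOCK, ARNTL (the gene now named BMAL1), PER1, PER2, PER3, CRY1, CRY2, NR1D1, NR1D2 and DBP were examined in MDA-MB-231-DR cells. Rows were taken by gene symbol, and 10 of the 58302 genes in the deposited table were these genes, each found in 1 row. MDA-MB-231-DR cells resist doxorubicin and descend from MDA-MB-231, a triple-negative breast cancer line. The methods keep the line in medium with a low concentration of doxorubicin, and whether the sequenced cells were in it is not given in the sources used here. There were 3 control libraries and 3 libraries of cells treated with cyperotundone (CYT), a constituent of sedge. The comparison asks which transcripts differ when resistant cells receive CYT. The dose and duration of CYT for these libraries, the hour of harvest and any synchronization of the cultures are not given in the sources used here. The labels do not say that the replicates came from separate cultures, so p-values measure only the spread between these libraries.

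The clock is a feedback loop of transcription. CLOCK and ARNTL form a dimer that binds E-box sequences and activates the PER and CRY genes, whose proteins return to the nucleus and repress the dimer. In a second loop, the REV-ERB receptors encoded by NR1D1 and NR1D2 repress ARNTL through ROR elements, which the ROR receptors activate. DBP is an output factor that binds D-boxes. In cultures that are not synchronized, single cells can keep rhythms of different phase, so that a bulk library averages over them.

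Libraries held 14050849 to 17770102 counts over all genes in control and 13056270 to 14106017 in CYT. Replicate 2 of each group stood apart from the others in many genes, and the lowest correlation between replicates was 0.904 on the log2 scale, between CYT replicates 2 and 3 (across genes). Of 2 genes that the MDA-MB-231 line expresses, VIM had 2259 to 2742 CPM over the control and 911 to 1119 CPM over the CYT libraries (log2 fold change -1.30, edgeR adjusted p = 0.00535), and CD44 had 128 to 149 CPM and 111 to 141 CPM. The genes ESR1, PGR and CDH1, which it lacks or holds at low level, had at most 4 counts in control and at most 16 in CYT libraries. Over 5 markers of other cells (PTPRC, CD3E, PECAM1, VWF and ALB), the summed level was 1.49 to 3.16 CPM over the control and 3.17 to 4.05 CPM over the CYT libraries, with CD3E at 0 in every library. ALB and PTPRC were at 0 in every control library and had 9 to 14 and 2 to 7 counts in the CYT libraries, and CDH1 was at 0 in control and had 2 to 16 counts in CYT libraries. VWF was also higher, with 0.310 to 0.692 CPM over the control and 0.776 to 2.54 CPM over the CYT libraries. PECAM1 went the other way, with 1.18 to 2.52 CPM over the control and 0.636 to 1.06 CPM over the CYT libraries. The part of these shifts in the results was not tested.

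Promoter windows of RefSeq (GRCh38.p14, 250 bases before to 50 after an annotated start) were searched on both strands for the E-box CACGTG, its variant CACGTT, the D-box TTATGNAA and the ROR element core TAGGTCA. All 10 genes had a window, 15 in all. Of these, 2 held CACGTG, against 7.26% of all 35116 windows. The shares of all windows were 5.34% for CACGTT, 3.30% for TTATGNAA and 1.85% for TAGGTCA, and 16.7% held at least 1 of these motifs. PER1 and NR1D2 had CACGTG, CLOCK, PER2, CRY1, CRY2 and NR1D1 had CACGTT, and PER1, PER3 and NR1D2 had TTATGNAA. ARNTL and CRY2 had TAGGTCA, and DBP had none of these letters in its window. For ARNTL, CRY1 and PER2, which rose, for their paralogs CRY2 and PER1 and for both REV-ERB genes, 1 stretch each is shown 5′ to 3′ on the strand of the gene, with its matches in capitals. The CACGTT of CRY2, the TTATGNAA of PER1 and the matches of PER3 and CLOCK are not shown. They lie at chr11:13277809-13277838 (ARNTL, plus strand), chr12:107093621-107093650 (CRY1, minus), chr2:238288751-238288850 (PER2, minus), chr11:45847398-45847427 (CRY2, plus), chr17:8152525-8152624 (PER1, minus), chr17:40100720-40100819 (NR1D1, minus) and chr3:23945916-23946030 (NR1D2, plus). In GENCODE release 29 the stretches of ARNTL and CRY1 lie wholly, and those of CRY2 and NR1D1 in part, within annotated exons of their own gene.
ARNTL: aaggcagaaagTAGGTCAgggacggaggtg
CRY1: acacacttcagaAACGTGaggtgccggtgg
PER2: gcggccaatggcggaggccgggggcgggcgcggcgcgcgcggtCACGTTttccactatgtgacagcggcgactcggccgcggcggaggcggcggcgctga
CRY2: gttgcggcgtcaTAGGTCActgggcgggct
PER1: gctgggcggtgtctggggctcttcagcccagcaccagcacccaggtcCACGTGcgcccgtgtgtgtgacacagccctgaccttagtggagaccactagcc
NR1D1: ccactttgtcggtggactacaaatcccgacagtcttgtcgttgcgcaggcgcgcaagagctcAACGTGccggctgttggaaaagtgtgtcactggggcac
NR1D2: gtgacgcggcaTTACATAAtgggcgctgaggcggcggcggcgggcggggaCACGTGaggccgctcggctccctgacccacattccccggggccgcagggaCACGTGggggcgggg
In ARNTL the capitals are the ROR element core from base 31 to 37 after the start. In CRY1 they are the variant E-box read on the opposite strand, from base -89 to -84 relative to the start, and in PER2 the same variant on the strand of the gene. The stretch of NR1D2 has a D-box read on the opposite strand followed by a pair of E-boxes. Such a match is a description of the letters and does not show that a factor bound there.

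Between CYT-treated and control cells, ARNTL, CRY1 and PER2 passed the test as higher after CYT treatment, and none of the 10 genes passed it as lower. ARNTL rose 3.43-fold, CRY1 3.30-fold and PER2 2.74-fold in mean CPM, in which each count is divided by its library's TMM-normalized size. Errors of log2 fold changes are standard errors (SE). Of the 10 genes, 3 passed an adjusted p of 0.05 (edgeR, quasi-likelihood) and are referred to as called, while 28.6% of all 15572 genes tested were called in either direction, 15.7% higher and 12.9% lower. The 3 of 10 lie close to the share in either direction, and all 3 were higher. All 10 passed the filter on low counts. Their median log2 fold change was 0.74, against 0.0064 over all genes tested. For 4 of the 10, ARNTL, PER2, CRY1 and CRY2, every CYT library was above every control library, which held for 23.4% of all genes tested, and for none was every CYT library below, which held for 22.7%. With a log2 fold change over 1 required as well, the same 3 were called, against 27.4% of all genes. The number called was 5 without CYT replicate 2, where CRY2 and NR1D1 were called as well, and 35.6% of all genes. It was 2 without each of the control libraries 1, 2 and 3, where 18.3%, 23.3% and 17.6% of all genes were called, and 3 without CYT replicates 1 or 3 (20.7% and 19.8%). With DESeq2 (33.9% of all genes called), upper-quartile normalization (28.9%) or the replicate number as a block (39.9%) it was 4, and with limma on log2(FPKM + 1) (28.2%), limma on log2(FPKM + 0.1) (28.4%) or no filter (16%) it was 3. In bulk libraries, fewer cells that express a gene and less of its RNA per cell cannot be told apart.

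**Figure D1:**
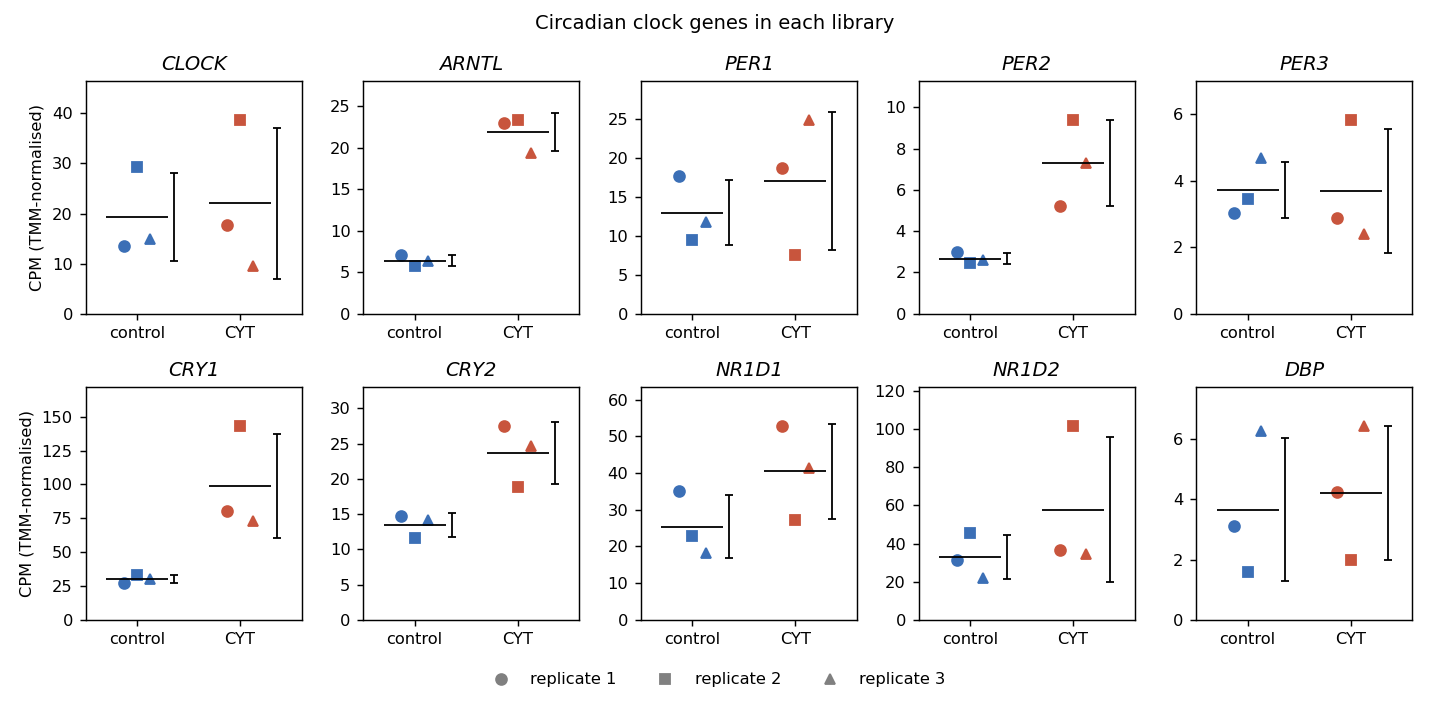
Level of each of the 10 clock genes (CPM, TMM-normalised, linear axes from 0) in the 3 control and 3 CYT libraries, with the marker shape giving the replicate number, the line the mean and the bar beside it the SD. ARNTL lay between 5.70 and 7.07 CPM in control and between 19.3 and 23.3 CPM in CYT libraries, while CLOCK, NR1D2 and PER3 were highest in CYT replicate 2.

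Of the activators, ARNTL encodes the partner of CLOCK and is found in GRCh38 on chromosome 11 from 13276652 to 13387266 on the plus strand (ENSG00000133794). Its level was 7.07, 5.70 and 6.40 CPM in control replicates 1 to 3 and 23.0, 23.3 and 19.3 CPM in CYT replicates 1 to 3. The groups did not overlap, and the SD within a group was small beside the difference, 6.39 ± 0.685 CPM (SD, n = 3) against 21.9 ± 2.24 CPM (SD, n = 3). The log2 fold change was 1.78 (SE 0.31, edgeR adjusted p = 0.00305). Replicate 2, which stood apart for other clock genes, was close to the other replicates for ARNTL in both groups.
CLOCK, a histone acetyltransferase and the DNA-binding partner of ARNTL, lies on chromosome 4 from 55427903 to 55547138 on the minus strand (ENSG00000134852). Its level was 13.6, 29.4 and 14.9 CPM in control and 17.7, 38.7 and 9.61 CPM in CYT replicates 1 to 3. Replicate 2 was the highest of each group, the groups overlapped, and the log2 fold change of 0.19 (SE 0.52, edgeR adjusted p = 0.813) was not called. Without CYT replicate 2 it was -0.51, also not called.

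Of the repressors, CRY1 encodes a cryptochrome, the strongest repressor of the dimer, and lies on chromosome 12 from 106991364 to 107093829 on the minus strand (ENSG00000008405). Its level was 26.8, 32.7 and 30.3 CPM in control and 80.7, 143 and 72.9 CPM in CYT replicates 1 to 3. The lowest CYT library was over every control library, and CYT replicate 2 was far above the other CYT libraries. The log2 fold change was 1.72 (SE 0.34, edgeR adjusted p = 0.00562), and it was 1.35 without CYT replicate 2 (edgeR adjusted p = 0.00319).
CRY2, the other cryptochrome, lies on chromosome 11 from 45847118 to 45883248 on the plus strand (ENSG00000121671). Its level was 14.7, 11.6 and 14.1 CPM in control and 27.5, 18.9 and 24.6 CPM in CYT replicates 1 to 3, without overlap between the groups. The log2 fold change of 0.82 (SE 0.31, edgeR adjusted p = 0.0734) was not called. It was called higher with the replicate number as a block (0.81, edgeR adjusted p = 0.0289) and without CYT replicate 2 (0.95, edgeR adjusted p = 0.0207).
PER2, a period protein that partners the cryptochromes, lies on chromosome 2 from 238244038 to 238290102 on the minus strand (ENSG00000132326). It was a low transcript, with 48, 46 and 36 counts in control and 74, 132 and 92 counts in CYT replicates 1 to 3, or 2.67 ± 0.273 CPM (SD, n = 3) against 7.31 ± 2.09 CPM (SD, n = 3). Every CYT library was above every control library. The log2 fold change was 1.45 (SE 0.38, edgeR adjusted p = 0.0188), but the call was lost when any 1 of the control libraries was left out, with adjusted p from 0.0519 to 0.0737 (edgeR).
PER1, a period gene that is also induced by hormones and cAMP, lies on chromosome 17 from 8140472 to 8156506 on the minus strand (ENSG00000179094). It had 17.6, 9.48 and 11.8 CPM in control and 18.7, 7.47 and 24.9 CPM in CYT replicates 1 to 3. The groups overlapped, with replicate 2 lowest in each, and the log2 fold change of 0.39 (SE 0.46, edgeR adjusted p = 0.554) was not called. It was 0.75 without CYT replicate 2 and 0.049 without CYT replicate 3, also not called.
PER3, the period gene that is least needed for rhythms, lies on chromosome 1 from 7784320 to 7845177 on the plus strand (ENSG00000049246). It had 3.04, 3.46 and 4.67 CPM in control and 2.89, 5.84 and 2.38 CPM in CYT replicates 1 to 3, with the group ranges overlapping. Its log2 fold change was -0.0040 (SE 0.45, edgeR adjusted p = 0.996), and its sign changed with the normalization.

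NR1D1 and NR1D2 encode REV-ERB alpha and REV-ERB beta, heme-binding receptors that repress ARNTL. NR1D1 lies on chromosome 17 from 40092787 to 40100725 on the minus strand (ENSG00000126368), with 35.03, 22.9 and 18.3 CPM in control and 52.8, 27.1 and 41.5 CPM in CYT replicates 1 to 3. CYT replicate 2 lay within the control range, and the log2 fold change of 0.67 (SE 0.37, edgeR adjusted p = 0.198) was not called. Each CYT library was above the control library of the same number. With the replicate block the log2 fold change was 0.67 (SE 0.27, edgeR adjusted p = 0.0738), also not called. Without CYT replicate 2 NR1D1 was called higher, at 0.89 (edgeR adjusted p = 0.0484), and it was 0.43 without CYT replicate 1 and 0.46 without control replicate 3 (edgeR adjusted p = 0.503 and 0.498).
NR1D2 lies on chromosome 3 from 23945260 to 23980618 on the plus strand (ENSG00000174738), with 31.2, 45.5 and 22.1 CPM in control and 36.9, 102 and 34.6 CPM in CYT replicates 1 to 3. Here CYT replicate 2 was the highest library, and the other CYT libraries lay within the control range. The log2 fold change of 0.81 (SE 0.47, edgeR adjusted p = 0.226) was not called. Each CYT library was above the control library of the same number, and with the replicate block the value was 0.69 (SE 0.26, edgeR adjusted p = 0.0670), while it was 0.11 without CYT replicate 2.
DBP, an activator at D-boxes and a direct target of the dimer in liver, lies on chromosome 19 from 48630030 to 48637438 on the minus strand (ENSG00000105516). Its counts were 50, 30 and 87 in control and 60, 28 and 81 in CYT replicates 1 to 3, and the groups overlapped over nearly their whole range. The log2 fold change of 0.21 (SE 0.58, edgeR adjusted p = 0.814) was not called, and a change of its mean smaller than this spread was not detectable in this fit. In CPM each CYT library was above the control library of the same number. With the replicate block the value was 0.26 (SE 0.37, edgeR adjusted p = 0.594), also not called.

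Several clock genes share bases with a gene on the opposite strand, and the counting's use of strand is not given in the sources used here. NR1D1 and THRA, which encodes thyroid hormone receptor alpha, overlap by 1081 bases, of which 263 are exonic in both, 9.49% of the exons of NR1D1. THRA had 428, 397 and 342 counts in control and 52, 50 and 47 in CYT replicates 1 to 3, and it fell by 2.72 in log2 fold change (SE 0.32, edgeR adjusted p = 0.000722) while NR1D1 was not called. DBP shares 661 exonic bases, 10.1% of its exons, with SPHK2, a sphingosine kinase gene, which fell by 1.45 (SE 0.47, edgeR adjusted p = 0.0455). The gene that overlaps CLOCK most, TMEM165, had a log2 fold change of 0.015 and shared 0.646% of the exons of CLOCK. No gene that overlaps ARNTL, CRY1 or PER2 had over 8 counts in a library. How reads in shared bases were assigned was not tested.

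Levels of different genes were compared as FPKM, the authors' values per kilobase. In control cells NR1D1 was highest (8.998 ± 2.62 FPKM, SD, n = 3), followed by CRY1 (4.01 ± 0.650, SD, n = 3) and NR1D2 (3.79 ± 1.55, SD, n = 3), and the ranges of CRY1 and NR1D2 overlapped. CRY2 (1.25 FPKM), CLOCK (1.08) and PER1 (0.847) came next, each overlapping its neighbour, and then ARNTL (0.614) and PER2 (0.361), which stood apart from their neighbours above them. DBP (0.357) and PER3 (0.285) overlapped PER2 or each other at the low end. In CYT-treated cells NR1D1 (14.6 ± 4.34 FPKM, SD, n = 3) and CRY1 (13.6 ± 6.22, SD, n = 3) had overlapping ranges, and ARNTL moved from rank 7 to rank 5 at 2.15 ± 0.352 FPKM (SD, n = 3). The gene length implied by FPKM and count equalled the exonic length of GENCODE release 29 for NR1D1 and was up to 2.14 times that length in the others, highest for PER1, and with the latter length CRY1 ranked 1 and NR1D1 ranked 2 in CYT-treated cells. The order of near neighbours therefore depends on the length taken.

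Ratios between genes within a library do not depend on how libraries are scaled, and 5 were tested. The ratios were not corrected for GC content, to which the differences of replicate 2 were related, as described below. It differed least between CLOCK and ARNTL (37.2% and 43.0%) and more in the other pairs, such as CRY1 and CRY2 (37.2% and 57.0%). The FPKM ratio of CLOCK to ARNTL was 1.10, 2.95 and 1.33 in control and 0.440, 0.949 and 0.285 in CYT replicates 1 to 3, a mean log2 difference of -1.73. The ratio of NR1D1 to ARNTL was 18.4, 14.9 and 10.6 in control and 8.52, 4.31 and 7.96 in CYT replicates 1 to 3, a mean log2 difference of -1.10. Both were lower in every CYT library than in any control library, so that ARNTL was higher relative to its partner and to its repressor in each CYT library. The ratio of CRY1 to CRY2 was 2.62 to 4.06 over the control and 4.20 to 10.9 over the CYT libraries, a log2 difference of 0.86. CYT replicate 2 held the highest value, and without it the difference was 0.40. The ratio of PER1 to PER2 was 1.89 to 2.89 over the control and 0.388 to 1.75 over the CYT libraries, a log2 difference of -1.14. CYT replicate 2 held the lowest value, and without it the difference was -0.43. Each of these 4 ratios had an exact permutation p of 0.1 (two-sided), the smallest that 3 against 3 allow, and 0.125 after adjustment over the 5 ratios. The permutations did not use the replicate numbers as pairs. For NR1D1 to NR1D2 the groups overlapped, with a log2 difference of -0.0097 (exact permutation p = 1.0, two-sided), a control SD of 0.58 and a CYT SD of 1.33.

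**Figure D2:**
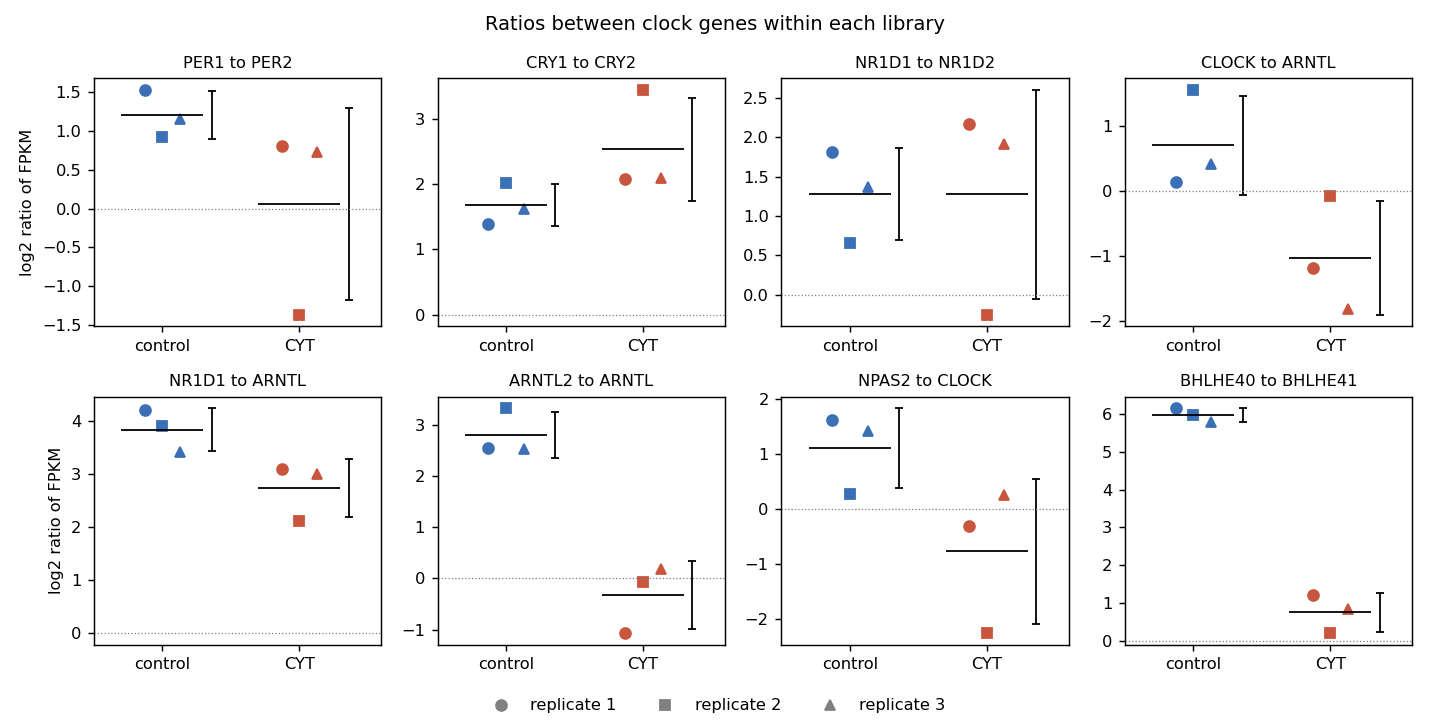
Log2 ratio of FPKM between 2 clock genes within each library (each panel with its own axis), for control and CYT, with the marker shape giving the replicate, the line the mean and the bar the SD. The ratio of CLOCK to ARNTL was below 0 in all 3 CYT libraries and above 0 in all 3 control libraries, and CYT replicate 2 was farthest from the others for PER1 to PER2 and NR1D1 to NR1D2.

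Of 24 other clock genes on a list written by role, 19 passed the filter on low counts, and 6 of these were called, 2 higher and 4 lower, against 28.6% of all genes tested. The median log2 fold change of the 19 was -0.37. Both paralogs of the activators fell. NPAS2, which can replace CLOCK as the partner of ARNTL, had 37.1, 31.4 and 35.2 CPM in control and 12.7, 7.19 and 10.2 CPM in CYT replicates 1 to 3, a log2 fold change of -1.79 (SE 0.33, edgeR adjusted p = 0.00385). ARNTL2, the paralog of ARNTL, had 35.9, 49.4 and 32.0 CPM in control and 9.45, 19.2 and 18.8 CPM in CYT replicates 1 to 3, a log2 fold change of -1.30 (SE 0.37, edgeR adjusted p = 0.0254). Its call was lost in 4 of 6 leave-one-out fits, without control replicates 1 or 2 or CYT replicates 1 or 3, with adjusted p from 0.0507 to 0.0846 (edgeR).
ARNTL and ARNTL2 thus moved in opposite directions. Their FPKM ratio, ARNTL2 to ARNTL, was 5.87, 10.02 and 5.78 in control and 0.475, 0.952 and 1.13 in CYT replicates 1 to 3. It was chosen after its values were seen and was not tested. By FPKM, ARNTL2 was the more abundant of the pair in each control library, while in CYT libraries it was below ARNTL in replicates 1 and 2 and above it in replicate 3. The order in CYT replicate 3 depends on the length taken. There ARNTL2 had 18.8 CPM and ARNTL 19.3 CPM, and their exonic lengths in GENCODE release 29 are 6983 and 6726 bases.

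BHLHE40 and BHLHE41 encode DEC1 and DEC2, paralogous repressors that compete with the dimer at E-boxes, and they moved in opposite directions. BHLHE40 had 109, 82.3 and 107 CPM in control and 22.4, 13.2 and 17.6 CPM in CYT replicates 1 to 3, a log2 fold change of -2.49 (SE 0.33, edgeR adjusted p = 0.00111). BHLHE41 had 1.36, 1.17 and 1.73 CPM in control and 8.68, 10.2 and 8.74 CPM in CYT replicates 1 to 3, a log2 fold change of 2.70 (SE 0.37, edgeR adjusted p = 0.00130). Neither pair of groups overlapped, and both calls held in all 14 alternative fits. The FPKM ratio of BHLHE40 to BHLHE41, chosen after its values were seen and not tested, was 55.6 to 71.2 over the control and 1.15 to 2.30 over the CYT libraries.
CIART, also known as CHRONO, a repressor that binds the dimer, had 0, 3 and 0 counts in control and 11, 40 and 9 counts in CYT replicates 1 to 3. It was singled out after its values were seen. It was removed by the filter, and the ratio of its summed counts was 23.9 (95% interval 7.79 to 119, exact binomial, counting error only), with CYT replicate 2 holding most of the CYT counts. Without a filter it was called higher (edgeR adjusted p = 0.00555). Of the 4 leave-one-out fits in which it passed the filter, it was not called without control replicate 1 (edgeR adjusted p = 0.0514) or control replicate 3 (0.0545). TIMELESS, which acts mainly at replication forks in mammals, had a log2 fold change of -0.81 (edgeR adjusted p = 0.0814) and was not called. It was called lower with the replicate block (edgeR adjusted p = 0.0410) and with the GC content and length correction (edgeR adjusted p = 0.0112).
Of the 24 other genes 17 had a promoter window, 22 windows in all. CACGTG was held by 6 of these windows, against 7.26% of all windows. The 6 belonged to 5 genes, CIART, BHLHE40, BHLHE41, TIMELESS and TEF, with 2 of them in TEF. The letters were thus found in BHLHE41, which rose, and in BHLHE40, which fell. CIART, for which 3 matches are shown, lies at chr1:150282409-150282518 (plus strand), the match of BHLHE40 at chr3:4979187-4979216 (plus strand) and that of BHLHE41 at chr12:26125068-26125097 (minus strand), with the E-box in capitals. The stretches of BHLHE40 and BHLHE41 lie within annotated exons of their own gene.
CIART: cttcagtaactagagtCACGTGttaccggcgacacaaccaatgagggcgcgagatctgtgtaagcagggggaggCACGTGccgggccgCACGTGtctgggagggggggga
BHLHE40: tccaaCACGTGagactcatgtgatgaagcc
BHLHE41: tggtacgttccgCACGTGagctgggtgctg

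Of the other receptors and D-box factors, RORA, an activator at ROR elements, never exceeded 13 counts, did not pass the filter with all 6 libraries and was not called without a filter (-0.87, edgeR adjusted p = 0.465), and RORB had a log2 fold change of -0.46 that was not called (edgeR adjusted p = 0.620). TEF, a relative of DBP, had a log2 fold change of -0.998 (edgeR adjusted p = 0.188) and was called lower where the block was fitted beside the GC content and length correction (-1.06, edgeR adjusted p = 0.0495), and NFIL3, a repressor at D-boxes, had 0.78 (edgeR adjusted p = 0.0933). HLF had counts in CYT replicate 2 alone, 7 in number.
Of 7 genes for kinases and ubiquitin ligase parts, which set the stability of PER and CRY proteins, 6 were tested and 1 was called, against 28.6% of all genes tested. CSNK1E, casein kinase 1 epsilon, which phosphorylates PER proteins, had 123, 79.5 and 142 CPM in control and 64.3, 22.5 and 43.8 CPM in CYT replicates 1 to 3, a log2 fold change of -1.40 (SE 0.42, edgeR adjusted p = 0.0323). This call was lost in 3 of 6 leave-one-out fits, without control replicates 1 or 3 or CYT replicate 3 (adjusted p from 0.0843 to 0.110, edgeR). Its close paralog CSNK1D was not called (log2 fold change 0.47, edgeR adjusted p = 0.316), but it was called higher without CYT replicate 2 (0.72, edgeR adjusted p = 0.0428) and with the GC content and length correction (0.62, edgeR adjusted p = 0.0193). FBXW11, a ubiquitin ligase part that acts on PER proteins, had -0.78 (edgeR adjusted p = 0.0755) and was not called. It was called lower with the replicate block (edgeR adjusted p = 0.0261), without CYT replicate 2 (edgeR adjusted p = 0.0131) and with the GC content and length correction (edgeR adjusted p = 0.00247).
Of 5 rhythmic output genes, KLF10, a zinc-finger factor, was called, again against 28.6% of all genes tested. It had 25.7, 73.9 and 58.3 CPM in control and 129, 156 and 111 CPM in CYT replicates 1 to 3, a log2 fold change of 1.33 (SE 0.40, edgeR adjusted p = 0.0333). Its call was lost in 4 of 6 leave-one-out fits, without control replicates 1 or 3 or CYT replicates 1 or 3 (adjusted p from 0.0604 to 0.0911, edgeR). Over the list of 24, the count of calls was 3 without control replicate 1, where 18.3% of all genes were called. NAMPT (0.70), WEE1 (0.49), NOCT (-0.37) and USP2 (-1.75) were not called, with adjusted p from 0.195 to 0.481 (edgeR). NAMPT was called higher with the GC content and length correction (edgeR adjusted p = 0.0110). USP2 had 14, 24 and 10 counts in control and 0, 0 and 11 in CYT replicates 1 to 3, and it was called lower without CYT replicate 3, the CYT library in which it had counts (edgeR adjusted p = 0.0152).

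**Figure D3:**
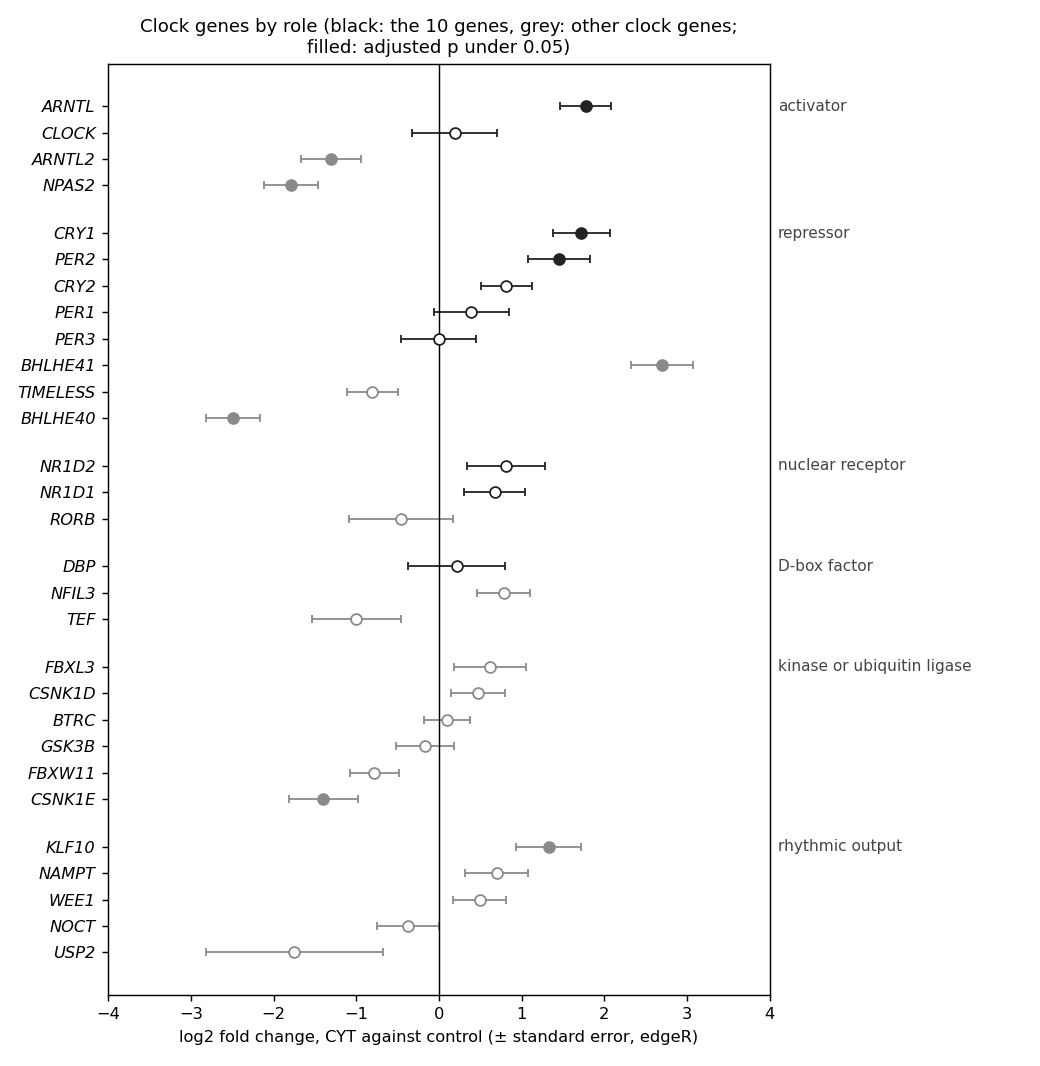
Log2 fold change of CYT against control with its standard error (edgeR) for the 10 clock genes (black) and the 19 tested other clock genes (grey), grouped by role, with filled points for an adjusted p under 0.05. Among the activators ARNTL lies at 1.78 and NPAS2 at -1.79, and among the repressors BHLHE41 lies at 2.70 and BHLHE40 at -2.49.

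The clock genes also differed among themselves in how replicate 2 compared with replicates 1 and 3, and this went with base composition. GC content was taken from the longest annotated transcript. CLOCK (37.2% GC), CRY1 (37.2%) and NR1D2 (38.5%) were highest in replicate 2 of both groups, while PER1 (62.7%), DBP (57.8%) and CRY2 (57.0%) were lowest in replicate 2 of both groups. Under 50% GC, the 5 genes had a median log2 ratio of replicate 2 to the mean of the other replicates of 0.20 in control and 1.15 in CYT libraries. Over it, the 5 genes had a median of -0.32 in control and -0.80 in CYT libraries. The medians over all genes tested had the same signs, 0.23 and -0.37 in control and 0.54 and -0.72 in CYT libraries for the 8447 genes under and the 7095 genes over 50% GC. Corrected for GC content and length, an alternative chosen after seeing the data, CRY2 (edgeR adjusted p = 0.00476), NR1D1 (0.0359) and NR1D2 (0.0447) were called higher as well as ARNTL, CRY1 and PER2, with 47% of all genes called. With the replicate block added, the same 6 were called, and 46.3% of all genes.

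**Figure D4:**
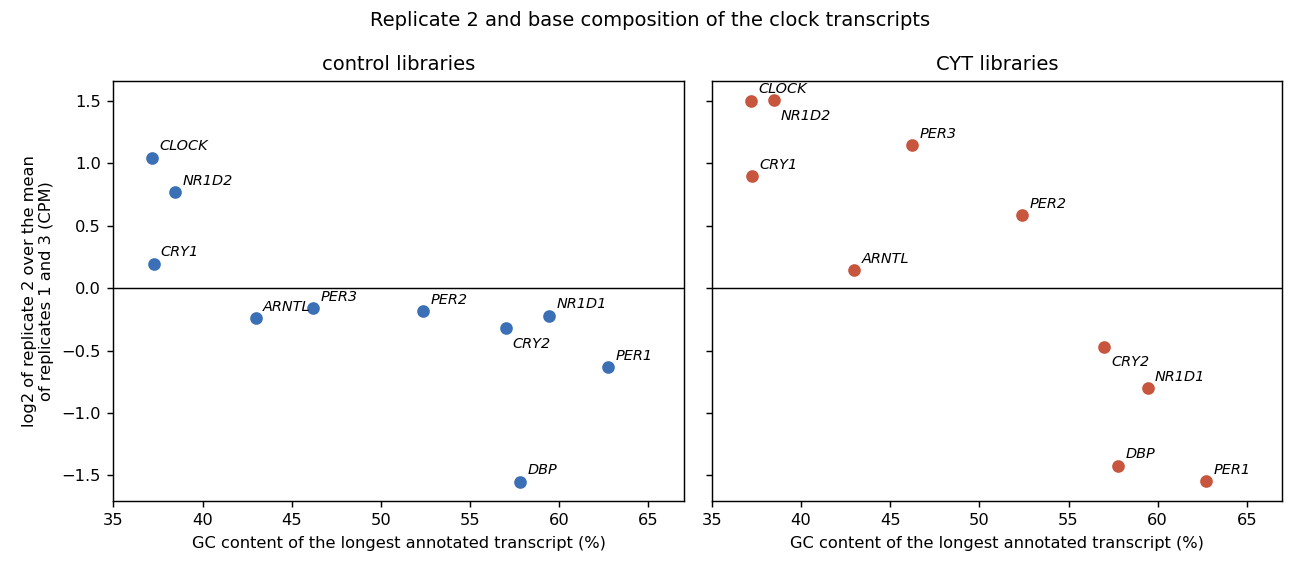
Log2 ratio of the level (CPM) in replicate 2 to the mean of replicates 1 and 3 against the GC content of the longest annotated transcript, for the 10 clock genes in control (left) and CYT (right) libraries. In CYT libraries the genes ran from 1.51 for NR1D2 at 38.5% GC to -1.54 for PER1 at 62.7% GC.

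Of the 11416 genes with a mean of at least 5 CPM, those whose centred log2 CPM over the 6 libraries lay nearest to that of ARNTL, of the 10 genes that with the smallest p, were ZNF433-AS1, AC068338.2 and DDN-AS1. Their root mean square differences from ARNTL were 0.114, 0.115 and 0.115 on the log2 scale.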

How the data were processed

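RNA from MDA-MB-231-DR cells (3 control and 3 CYT libraries) was extracted with an RNeasy kit, and mRNA was separated and sequenced on an Illumina NovaSeq platform. The authors discarded reads of low quality and those from adapters or ribosomal RNA, aligned the clean reads with Hisat2 and deposited raw counts per gene. They also deposited FPKM values, for which the methods name Stringtie. The submitters' processing notes name FastQC 0.12.1 and hg38. The counting program is not given in the sources used here. GENCODE release 29 holds 58039 of the 58302 gene identifiers, 97.5% of them at the deposited GRCh38 locus, the 10 clock genes included.

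The deposited counts were tested in R 4.3.3 with edgeR 4.0.16 (TMM, filterByExpr with a minimum count of 10, quasi-likelihood test, Benjamini-Hochberg over 15572 genes). Standard errors come from the fold change and the F statistic. Over 10160 genes with 50 or more counts per library, FPKM and count imply 1 length per gene within 0.00209%. The 10 genes and the list of other clock genes were chosen with earlier results of these data known. Named were the 10 genes, the called genes of the list, NPAS2 and ARNTL2, genes overlapping a member and the 3 genes most like the member with the smallest p. Other genes of the list are given by value, and CIART was added after its values were seen. FBXL21P is FBXL21 in the table, and 1 gene of the list is not reported here. Alternatives were upper-quartile normalization, DESeq2 1.42.0, a replicate block, no filter, limma 3.58.1 on log2 of FPKM plus 1 or 0.1, a log2 fold change over 1, and leaving out each library. A loess correction for GC content and length was added after the data were seen.

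Deviations from the group mean were correlated across genes between same-numbered libraries (0.188, 0.458 and 0.124, each over 0.1). The replicate numbers of the labels were therefore used as a block, in alternative fits only. The labels do not state that libraries of the same number are pairs. Values across numbers were 0.303 (control 1, CYT 3) and 0.201 (control 3, CYT 1), above those of same-numbered pairs 1 and 3, so that the largest value of a control library fell to its own number for replicate 2 alone. In 3 simulations of 15572 genes with 200 changed by a log2 fold change of 2, edgeR recovered 107 to 119 of them with 3.60% to 11.2% false calls and, with the block, 76 to 106 with 3.33% to 9.40%. DESeq2 recovered 147 to 153 with 17.9% to 19.7% false calls and limma 106 to 117 with 6.19% to 12.0%. The simulated limma fit used log2(CPM + 1), not the FPKM of the limma fits reported here. The simulated counts held no shared pattern of replicate 2 and 200 changed genes, while 28.6% of genes were called in the data. These rates therefore need not hold for the data, with or without the block.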

Additional observations from a re-analysis of the deposited data

How the results depend on the processing

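ARNTL, CRY1, NPAS2, BHLHE40 and BHLHE41 kept their direction and their calls under each of 14 alternative fits. ARNTL ranged from 0.96, with limma on log2(FPKM + 1), to 1.93, and CRY1 from 1.35 to 1.91. That limma fit also gave smaller values for PER2 (0.55), BHLHE41 (1.21) and NPAS2 (-0.95). The number of called clock genes, 3, was 4 with DESeq2, upper-quartile normalization or the replicate block, and CRY2 was the gene added in each. It was 6 with the correction for GC content and length, with or without the replicate block, and 2 to 5 where a library was left out. Of the other clock genes, 6 were called. This number was 10 after correcting for GC content and length, 11 where that correction was fitted beside the block, 8 with the replicate block alone and 3 to 8 where a library was left out. Those 10, 11 and 8 are of 19 tested genes and stand beside 47%, 46.3% and 39.9% of all genes called in the same fits. Among the 10 genes and the genes of the list, the block alone changed the calls of CRY2, TIMELESS and FBXW11 and no other. It was not examined for other genes named here.

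Uncalled genes near 0 changed sign. PER3 was 0.022 with DESeq2, 0.15 with upper-quartile normalization, 0.0027 with limma on log2(FPKM + 1) and -0.50 to 0.24 where a library was left out. In those fits CLOCK ranged from -0.51 to 0.60 and DBP from -0.20 to 0.82. The log2 difference in the ratio of NR1D1 to NR1D2 ranged from -0.46 to 0.76, that of PER1 to PER2 from -1.52 to -0.43, CRY1 to CRY2 from 0.40 to 1.09, CLOCK to ARNTL from -2.20 to -1.30, and NR1D1 to ARNTL from -1.32 to -0.79. The median of all genes was 0.41 with no filter on low counts, 0.16 with upper-quartile normalization and -0.11 with the GC content and length correction. Fits that left out a library had fewer libraries, and the cause of the other changes was not tested. PER2, PER3 and DBP had at most 132 counts in a library. Depth limits CIART, HLF, RORA and FBXL21, which did not pass the filter.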
